A study of Caenorhabditis elegans with 33 samples.

Results

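Transcript levels of 8 genes were followed in whole L3 larvae of *C. elegans*: pgl-1, pgl-3, glh-1, glh-2, glh-4 and deps-1, which encode P granule proteins, and csr-1 and prg-1, which encode germline Argonautes. They were chosen by symbol as a measure of germline content, and all 8 were found among 21975 genes in the expression table. The values are FPKM (fragments per kilobase of transcript after scaling of the libraries), a level that takes transcript length into account. Comparison between genes is limited for those with several annotated transcripts, as described below. The table covers 33 poly(A) RNA libraries, 3 in each of 11 groups of 7 strains. All populations were hermaphrodite, and the study asked how repression of the X chromosomes depends on dosage compensation and on CEC-4, with DPY-27 depleted from the L1 stage or with mutations carried throughout life.

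P granules are condensates of RNA and protein that surround germ cell nuclei in *C. elegans* and mark the germ lineage throughout life. PGL proteins form their scaffold, GLH proteins are RNA helicases related to Vasa, and Argonautes use small RNAs held in or near the granules to license or silence germline transcripts. In the L3 stage germ cells proliferate and the first of them enter meiosis, whereas sperm and oocytes are made later. RNA of whole larvae is a mixture of a small germline with a large soma, so fewer germ cells and less RNA per germ cell cannot be told apart.

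Auxin was given at 4 mM for 24 hours from the L1 stage. The strains TIR-1; dpy-27::AID; cec-4, TIR-1; dpy-27::AID, dpy-27::AID and cec-4 were each grown on auxin plates and on plain plates, and dpy-21; cec-4, dpy-21 and WT (N2) on plain plates alone. In dpy-27::AID strains the endogenous condensin subunit gene dpy-27 carries the degron allele dpy-27::AID::MYC(xoe41). TIR-1 in the labels stands for the plant F-box protein TIR1, expressed from the eft-3 promoter (transgene ieSi57), which directs tagged DPY-27 to degradation on auxin. The study calls this promoter ubiquitous, and its activity in germ cells was not measured here. DPY-27 belongs to a condensin known for binding the X chromosomes of somatic cells. The allele cec-4(ok3124) affects a lamina tether of heterochromatin, and dpy-21(e428) affects a demethylase of the dosage compensation complex.

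From the smallest steps between low values, the libraries were estimated to hold 18.04 to 30.02 M fragments. FPKM values summed to 1.41 to 1.67 M per library, but to 2.55 M in WT replicate 1 and 2.02 M in WT replicate 2. Transcripts of dpy-27 were at 20.2 to 37.3 FPKM in the 33 libraries, as a degron acts on the protein, and dpy-21 ranged from 15.8 to 34.9 FPKM. The cec-4 transcript was listed at 0 in every untreated cec-4 and dpy-21; cec-4 library. However, among libraries labelled as carrying cec-4(ok3124), it was at 5.24 FPKM in cec-4 auxin replicate 3, at 5.69 FPKM in replicate 2 of auxin-treated TIR-1; dpy-27::AID; cec-4, and at 3.46 and 8.99 FPKM in replicates 1 and 2 of the same strain without auxin. It was listed at 0 in dpy-21 replicate 2 and TIR-1; dpy-27::AID auxin replicate 3, which are labelled as having cec-4 intact. The cec-4 gene has 2 annotated transcripts, and values of such genes are treated with caution for the reason given for pgl-1 and csr-1. The labels were kept.

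None of the 8 genes is X-linked. On WBcel235, glh-1 (WBGene00001598) lies on chromosome I at 6854478 to 6857536, glh-2 (WBGene00001599) on I at 6513928 to 6517507 and glh-4 (WBGene00001601) on I at 3727027 to 3731179. On the same chromosome, deps-1 (WBGene00022034) lies at 506473 to 509056 and prg-1 (WBGene00004178) at 7585329 to 7588367. Chromosome IV holds pgl-1 (WBGene00003992) at 6974441 to 6977318 and csr-1 (WBGene00017641) at 7957267 to 7962157, and pgl-3 (WBGene00003994) is on V at 4755979 to 4758587. All are annotated as protein-coding.

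Of the 8 genes, 6 had a mean of at least 1 FPKM, and these means were 6.01 to 102 FPKM. The helicase gene glh-1 had the highest listed level, with a mean of 102 FPKM over the 33 libraries and a range of 27.6 to 175 FPKM. Next came prg-1, the gene of the Piwi Argonaute that binds piRNAs, with a mean of 35.7 FPKM (14.3 to 74.9 FPKM). For both genes the lowest library was WT replicate 3 and the highest was dpy-21 replicate 2. The gene of DEPS-1, a protein needed for normal assembly of PGL-1 into P granules, had a mean of 13.2 FPKM (4.67 to 30.1 FPKM). GLH-1 and GLH-2 are close relatives, and how reads were split between their genes was not tested. The other Vasa-like helicase genes were lower, glh-4 with a mean of 11.53 FPKM (4.65 to 18.5 FPKM) and glh-2 with 6.73 FPKM (2.11 to 15.2 FPKM). The gene of the scaffold protein PGL-3 averaged 6.01 FPKM, with a highest value of 11.98 FPKM, and was listed at 0 in 3 libraries.

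**Figure D1:**
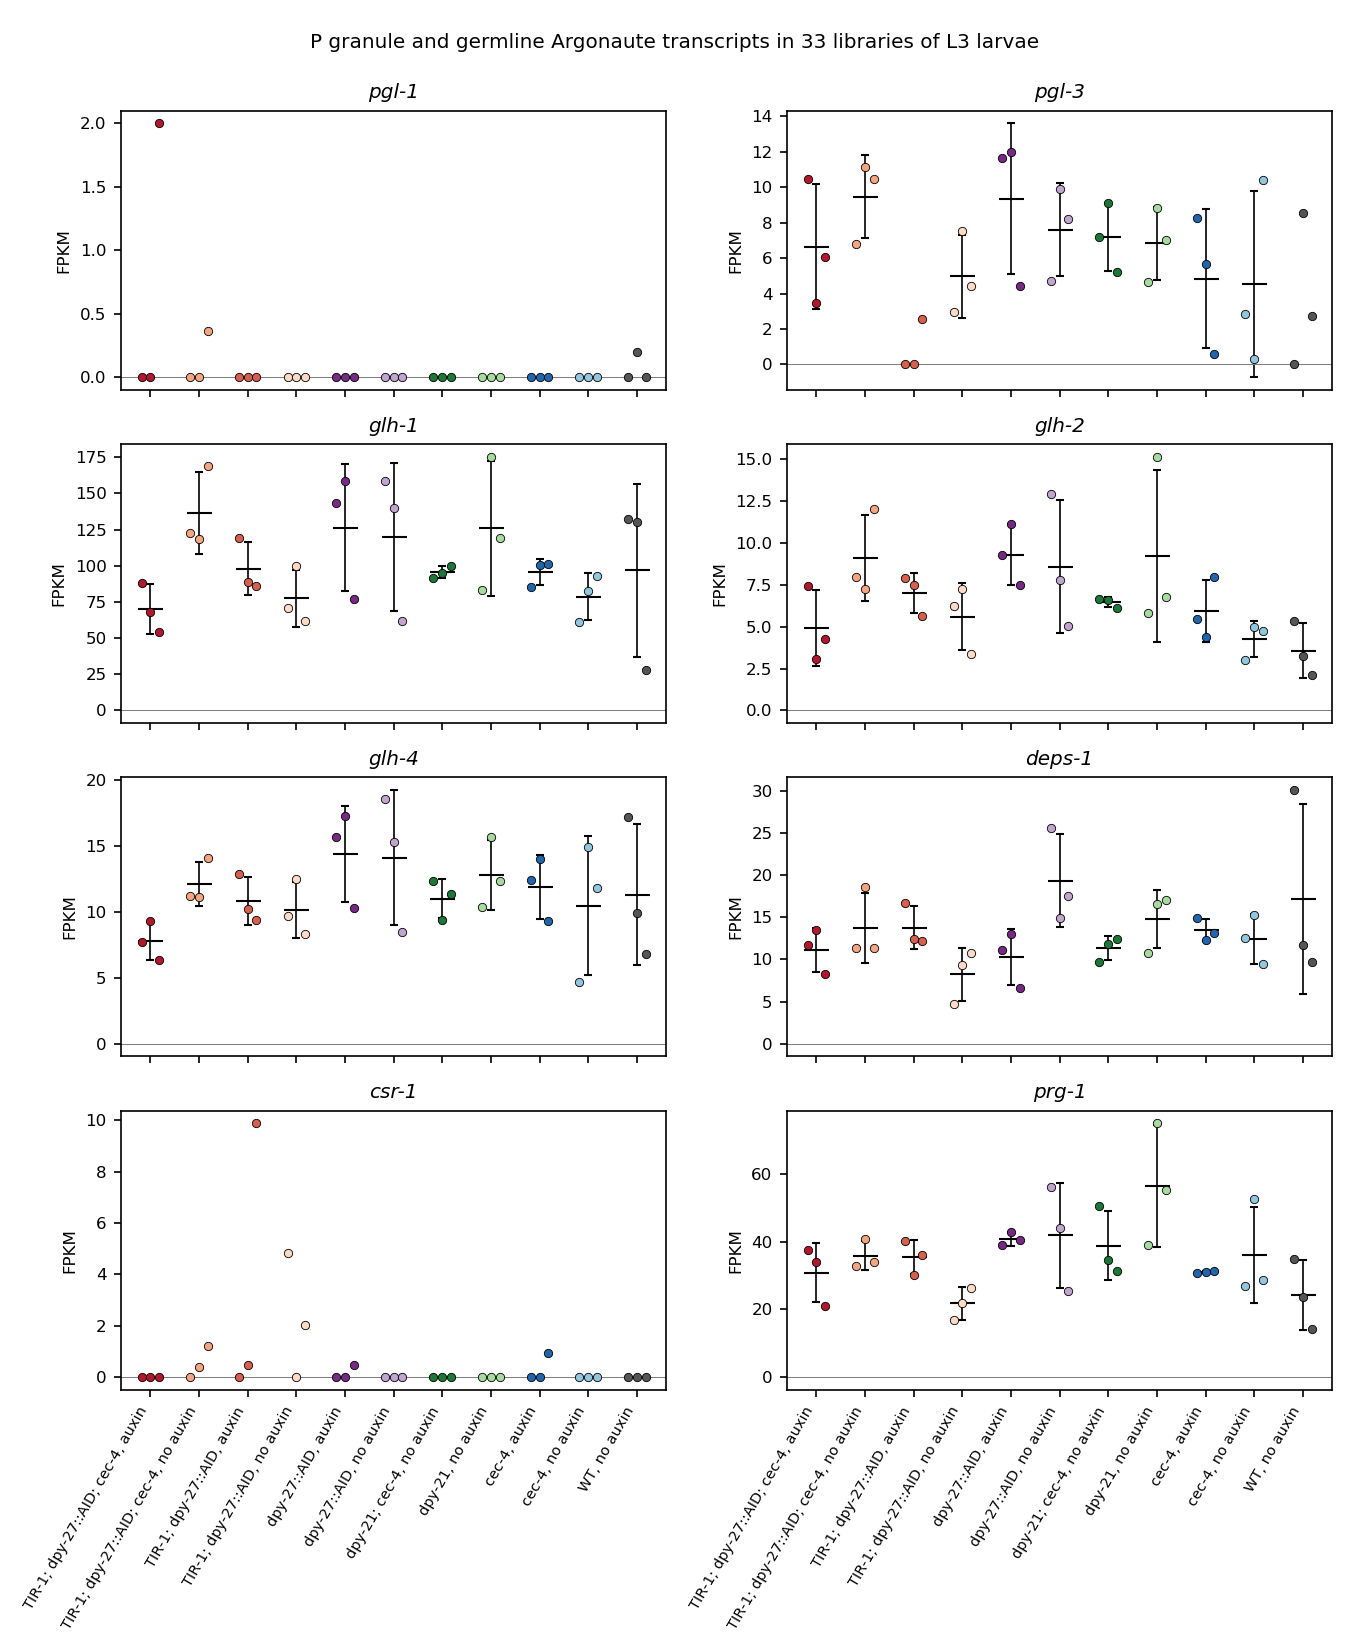
FPKM of the 8 genes by group, with a point for each of 3 replicates. The horizontal mark and bar are the mean and SD and are drawn only where no replicate is listed at 0. The 33 points of pgl-1 and csr-1 lie mostly on 0, whereas glh-1 runs from 27.6 to 175 FPKM and the WT points of glh-1 are spread widely within their group.

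pgl-1 and csr-1 gave no usable measure of germline content in these values. The gene of PGL-1, the founding scaffold protein of P granules, was listed at 0 in 30 of 33 libraries, and its highest value was 1.996 FPKM in replicate 3 of auxin-treated TIR-1; dpy-27::AID; cec-4. The other values were 0.359 FPKM in replicate 3 of that strain without auxin and 0.199 FPKM in WT replicate 2. The gene of CSR-1, an Argonaute loaded with small RNAs against germline-expressed genes, was listed at 0 in 25 libraries. It nevertheless reached 9.88 FPKM in TIR-1; dpy-27::AID auxin replicate 3, next to 0 and 0.485 FPKM in the other replicates, and 4.83 FPKM in untreated TIR-1; dpy-27::AID replicate 1, next to 0 and 2.02 FPKM. A single fragment would be worth about 0.0126 to 0.0246 FPKM for csr-1 and 0.0185 to 0.0362 FPKM for pgl-1, and the highest values stood for about 629 fragments of csr-1 and 90.6 fragments of pgl-1. A receptor gene that overlaps csr-1 on the same strand, frpr-10, looked up for this reason, had a mean of 0.0491 FPKM and was at 0 in 29 libraries. It has 4 annotated transcripts, so its zeros carry the limit described next. How reads were split between these genes was not tested.

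Among germline genes and abundant genes, a listed 0 went with the number of annotated transcripts. glh-1, glh-2, glh-4 and prg-1 have 1 annotated transcript each and were never at 0. By contrast pgl-1 and csr-1 have 3, and pgl-3 and deps-1 have 2, of which only deps-1 was above 0 in every library. Among 88 germline genes, made up of the 8 members and the lists of germ granule, small RNA, stem cell and meiotic genes, 24 of 37 with 2 or more transcripts were listed at 0 in at least 1 library (64.9%), against 6 of 51 with 1 transcript (11.8%). The same was seen among all protein-coding genes with a median of at least 20 FPKM, a set that includes germline genes such as glh-1 and prg-1. There, 38 of 3957 genes with 1 transcript had a library at 0 (0.96%), against 87 of 1062 with 2 transcripts (8.19%), 30 of 305 with 3 (9.84%) and 30 of 239 with 4 or more (12.6%). Over all protein-coding genes, rare ones included, this order was not seen, as 32.3% with 1 transcript were at 0 in 20 or more libraries, against 23.6% with 2, 19.9% with 3 and 31.3% with 4 or more. Given these shares, a listed 0 of pgl-1, csr-1 or pgl-3 is not read here as absence of the transcript. What produced these zeros was not tested.

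**Figure D2:**
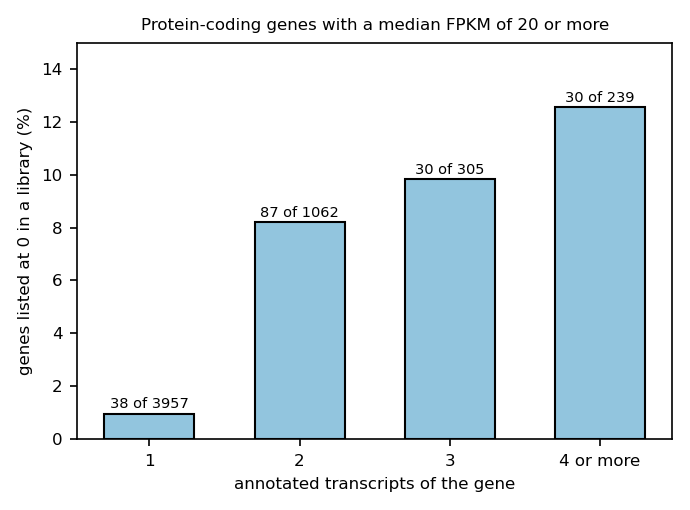
Share of protein-coding genes listed at 0 in at least 1 of 33 libraries, by annotated transcripts, for genes with a median of at least 20 FPKM. The bars stand at 0.96% for 1 transcript and at 8.19%, 9.84% and 12.6% for 2, 3 and 4 or more.

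Of the relatives of these genes, named after their values were seen, glh-3 (helicase family) averaged 4.25 FPKM and was never at 0 (1 transcript), and pgl-2 averaged 2.04 FPKM with 5 libraries at 0 (2 transcripts). To check the germline stage, genes of later gametes were examined. The 8 P granule and Argonaute genes summed to 63.3 to 306 FPKM per library and 24 meiotic chromosome genes to 65.1 to 202 FPKM. Of 16 oogenesis genes, 14 had a mean of at least 1 FPKM, and their sum was 33.2 to 125 FPKM. Of 18 spermatogenesis genes, 6 had a mean of at least 1 FPKM, 2 (gsp-3 and gsp-4, sperm phosphatase genes) were listed at 0 in every library, and their sum was 10.7 to 60.5 FPKM. Body wall muscle markers, 8 genes, summed to 3447 to 8083 FPKM.

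The 11 groups were ranked by mean FPKM for each gene. The replicates of every group overlapped with those of the next group in the order, in 10 of 10 neighbouring pairs for each of the 6 genes with a mean of at least 1 FPKM, whereas groups far from each other in the order could be apart. glh-1 was lowest in auxin-treated TIR-1; dpy-27::AID; cec-4, at 70.1 ± 17.2 FPKM, and highest in the same strain without auxin, at 137 ± 28.2 FPKM, with WT at 96.7 ± 59.9 FPKM (SD, n = 3 each). prg-1 was highest in dpy-21 at 56.4 ± 17.98 FPKM and lowest in untreated TIR-1; dpy-27::AID at 21.7 ± 4.76 FPKM, with WT at 24.3 ± 10.3 FPKM. For deps-1, untreated dpy-27::AID was highest at 19.3 ± 5.53 FPKM and untreated TIR-1; dpy-27::AID lowest at 8.24 ± 3.17 FPKM. For glh-2 and glh-4, auxin-treated dpy-27::AID had the highest means, 9.30 ± 1.81 and 14.4 ± 3.64 FPKM, and the lowest were 3.56 ± 1.64 FPKM for glh-2 in WT and 7.79 ± 1.45 FPKM for glh-4 in auxin-treated TIR-1; dpy-27::AID; cec-4.

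WT was the most scattered group. Its 3 libraries held 132, 130.4 and 27.6 FPKM of glh-1, and 34.8, 23.7 and 14.3 FPKM of prg-1. On the mean of glh-1, glh-2, glh-4, deps-1 and prg-1, each taken as log2(FPKM + 0.1) and centred on its 33 libraries, WT replicate 3 was lowest of all libraries at -1.12 and WT replicates 1 and 2 were at 0.44 and -0.25. The range was 0.07 in auxin-treated cec-4 and 0.12 in dpy-21; cec-4, against 1.56 in WT. WT replicate 3 was also low for the meiotic chromosome genes (-1.02) and the germline stem cell and fate regulators (-0.83). Among markers of the soma, it was low for body wall muscle (-0.63) and hypodermis and seam (-0.35). It was near the average for DNA replication genes (-0.08), and high for somatic gonad (0.97) and neuron markers (0.45). WT replicate 1, at 0.44 on the 5-gene mean, was low for germ granule (-0.66) and germline small RNA genes (-0.54). It was near the average for stem cell and fate regulators and high for oogenesis genes. Of the variance of the 5-gene mean, 42.6% lay between groups and 57.4% between replicates within groups. Every comparison with WT below rests on these 3 libraries. Without WT replicate 3 the median log2 difference of the 6 genes tested below changed to -0.24 in cec-4 against WT (0.15 with it) and to -0.40 in untreated TIR-1; dpy-27::AID against WT (-0.06 with it).

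The 6 genes with a mean of at least 1 FPKM were tested (pgl-1 and csr-1 were not). The test was limma on log2(FPKM + 0.1) over 13309 genes, with Benjamini-Hochberg adjustment over all of them and a threshold of 0.05. Within-group SDs on this scale were 0.40 for prg-1, 0.45 for glh-4 and deps-1, 0.50 for glh-2 and 0.55 for glh-1, next to a median of 0.60 over all genes tested, and 1.67 for pgl-3. Because pgl-3 is listed at 0 in some libraries, its fitted differences depend on the pseudocount.

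The first comparison was depletion of DPY-27, auxin-treated against untreated TIR-1; dpy-27::AID larvae. None of the 6 genes passed the test (0.413% of all genes did), although 3 of 6 had an unadjusted p below 0.05 (11.6% of all genes). The piRNA Argonaute gene prg-1 was at 40.2, 30.2 and 36.0 FPKM on auxin and at 16.8, 21.996 and 26.3 FPKM without it. The groups did not overlap, with a log2 difference of 0.72 (SE 0.32, 95% interval 0.06 to 1.38, adjusted p = 0.375). P granule assembly gene deps-1 held 16.7, 12.5 and 12.2 FPKM on auxin and 4.67, 9.33 and 10.7 FPKM without it, also without overlap (0.81, SE 0.38, adjusted p = 0.403). Such separation upward was seen for 9.07% of all genes. The helicase genes lay between 0.10 (glh-4) and 0.37 (glh-2), with overlapping groups. The median of the 6 differences was 0.36, next to -0.04 over all genes, but 0.13 without replicate 3 of the untreated larvae and 0.57 without replicate 2, and 0.24 without replicate 1 of the auxin-treated ones. Hypodermis and seam markers (6 of 7 above 0, median 0.97), oogenesis genes (11 of 14, median 0.48) and DNA replication genes (9 of 10, median 0.36) also lay higher on auxin, with none past the test (46.8% of all genes were above 0). Above 0 were also 8 of 15 germ granule genes (median 0.22), 10 of 15 germline small RNA genes (0.18) and 9 of 16 stem cell and fate regulators (0.06). None of these passed. Body wall muscle markers had centred log2 means of -0.58, -0.26 and -0.30 on auxin and 0.42, 0.15 and 0.76 without it. Their summed levels overlapped, at 4474 to 5411 FPKM on auxin and 3837 to 5786 FPKM without it. The part of these lists in the values of prg-1 and deps-1 was not tested.

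The scaffold gene pgl-3 went the other way in this strain. It was listed at 0, 0 and 2.57 FPKM in auxin-treated TIR-1; dpy-27::AID larvae and was at 2.93, 7.56 and 4.42 FPKM in untreated ones (adjusted p = 0.179; groups apart downward, as for 9.12% of all genes). The same 3 values of auxin-treated TIR-1; dpy-27::AID also lay below those of auxin-treated dpy-27::AID larvae, which lack TIR1 and held 11.6, 11.98 and 4.45 FPKM (adjusted p = 0.0629, with 9.84% of all genes apart in this direction). Auxin-treated TIR-1; dpy-27::AID; cec-4 larvae, at 10.5, 3.46 and 6.06 FPKM, lay above the 0, 0 and 2.57 FPKM of auxin-treated TIR-1; dpy-27::AID (adjusted p = 0.0748, with 12.3% of all genes apart). Both differences passed without replicate 3 of auxin-treated TIR-1; dpy-27::AID, with adjusted p = 0.0132 and 0.0171, leaving 2 libraries that are both listed at 0 for this 2-transcript gene. No fold is given for that reason. pgl-3 was also at 0 in WT replicate 1.

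With cec-4 mutated, the genes lay lower on auxin. In TIR-1; dpy-27::AID; cec-4 larvae all 6 differences, auxin minus no auxin, were below 0, with a median of -0.62 next to -0.05 over all genes, but none passed the test (6.4% of all genes did). At an unadjusted p below 0.05 there were 2 of 6, next to 21.1% of all genes. glh-1 was at 88.4, 68.0 and 54.1 FPKM on auxin and at 122, 118 and 169 FPKM without it. The groups did not overlap, the log2 difference was -0.97 (SE 0.43, 95% interval -1.85 to -0.09) and the adjusted p was 0.187. Helicase gene glh-4 had 7.72, 9.28 and 6.38 FPKM on auxin and 11.2, 11.1 and 14.1 FPKM without it, again apart (-0.64, SE 0.38, adjusted p = 0.349), as were 15.2% of all genes in this direction. Helicase gene glh-2 was at 7.45, 3.06 and 4.26 FPKM on auxin and at 7.97, 7.28 and 12.03 FPKM without it, with overlap (-0.93, adjusted p = 0.223). deps-1, prg-1 and pgl-3 differed by -0.29, -0.25 and -0.61, with overlapping groups and intervals that include 0. The median of the 6 genes stayed between -0.82 and -0.52 in 15 other settings of the analysis.

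Other germline lists were set in the same contrast, in which 52.4% of all genes were below 0. Spermatogenesis genes had a median of -1.33 over 6 genes tested, with none past the test. Of 22 meiotic genes tested, 21 were below 0 with a median of -1.02, and htp-2, a chromosome axis gene, fell to 0.789, 0.979 and 1.903 FPKM on auxin, against 5.12, 6.30 and 7.19 FPKM without it (-2.33, SE 0.69, adjusted p = 0.0437). Among 15 germline small RNA genes 11 were below 0 (median -0.35), and henn-1, which encodes the methyltransferase of piRNAs, fell by 1.18 on the log2 scale (adjusted p = 0.0326). Germ granule genes (11 of 15 below 0, median -0.26), stem cell and fate regulators (11 of 16, median -0.23), oogenesis genes (8 of 14, median -0.24) and DNA replication genes (7 of 10, median -0.13) had no member past the test. Summed levels of germ granule genes overlapped, at 331 to 403 FPKM on auxin and 347 to 402 FPKM without it, as did those of oogenesis genes, at 58.9 to 66.9 FPKM on auxin and 48.6 to 62.2 FPKM without it. In the list of somatic and general Argonaute genes (6 of 10 above 0, median 0.20), ain-1, a gene of the microRNA silencing complex, rose by 0.87 (adjusted p = 0.00202) and nrde-3, a nuclear Argonaute gene of the soma, by 0.74 on the log2 scale (adjusted p = 0.0440). Markers of the soma also moved. Hypodermis and seam markers summed to 1397 to 2984 FPKM on auxin and 5273 to 6048 FPKM without it, with a median difference of -1.52 over 7 genes tested of 9, of which the cuticle collagen gene dpy-7 fell to 99.1, 130.4 and 120 FPKM on auxin, against 366, 383 and 334 FPKM without it (-1.64, adjusted p = 0.0262). Intestine markers were above 0 in 3 of 8 (median -0.16) and 3 of them passed. Of these pept-1, a peptide transporter gene, rose by 0.94 (adjusted p = 0.00973), elt-2, the gene of an intestinal GATA factor, rose by 0.97 (adjusted p = 0.0459) and ges-1, a gut esterase gene, fell by 1.11 on the log2 scale (adjusted p = 0.0224). The 8 body wall muscle markers summed to 5070 to 5824 FPKM on auxin and 4548 to 5253 FPKM without it, with a median of 0.09 and none past the test. The 4 somatic gonad markers tested had a median of 0.22 and none past the test. Of the genes named in this contrast, ain-1, nrde-3, pept-1 and elt-2, which rose, and dpy-7, which fell, are X-linked. The study reported higher expression of X-linked genes in this contrast. Whether that or a change in tissue content moved these genes was not tested. The part of these shifts in the values of the P granule genes was not tested.

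**Figure D3:**
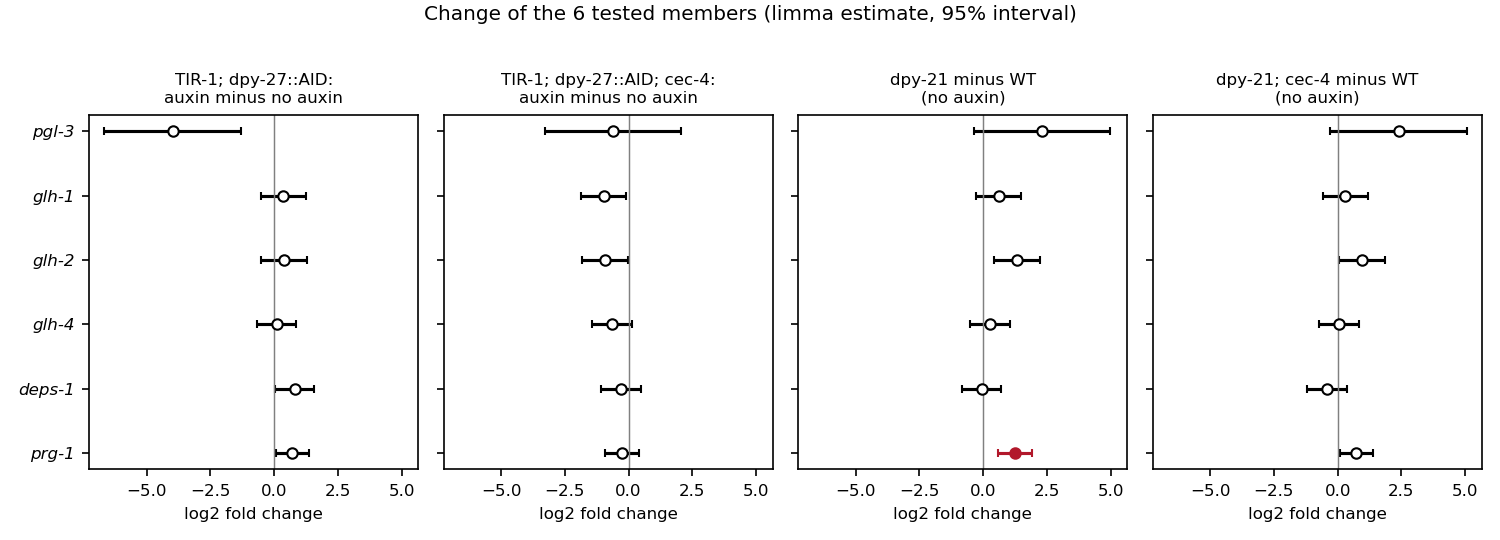
Log2 differences of the 6 tested genes in 4 comparisons, with 95% intervals from limma. The filled red point, prg-1 in dpy-21 minus WT at 1.25, is the only value past the threshold, and pgl-3 has the widest intervals throughout.

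To ask whether the auxin response differed between these strains, the response of TIR-1; dpy-27::AID was subtracted from that of TIR-1; dpy-27::AID; cec-4. Differences of the responses were -1.32 for glh-1 (SE 0.61), -1.30 for glh-2 (SE 0.62), -1.10 for deps-1 (SE 0.53), -0.97 for prg-1 (SE 0.45) and -0.74 for glh-4 (SE 0.53). The unadjusted p was below 0.05 for 4 of the 6 genes, next to 15.5% of all genes, but none passed the test, in which 1.44% of all genes did (lowest adjusted p = 0.290, for glh-1). No value is given for pgl-3, which is listed at 0 in 2 of the libraries. Meiotic chromosome genes were below 0 in 21 of 22 (median -1.32) with none past the test. For dpy-7 the responses differed by -2.99 (adjusted p = 0.0122).

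The strains were also compared without auxin. Untreated TIR-1; dpy-27::AID; cec-4 lay above untreated TIR-1; dpy-27::AID for 6 of 6 genes (median 0.76, next to -0.02 over all genes), and 4 of them had groups that did not overlap, as did 7.35% of all genes. glh-1 was at 122, 118 and 169 FPKM in TIR-1; dpy-27::AID; cec-4 and at 70.7, 99.9 and 61.9 FPKM in TIR-1; dpy-27::AID (0.83, SE 0.43, adjusted p = 0.631). prg-1 was at 32.8, 40.7 and 34.0 FPKM in TIR-1; dpy-27::AID; cec-4 and at 16.8, 21.996 and 26.3 FPKM in TIR-1; dpy-27::AID (0.74, SE 0.32, adjusted p = 0.501). The other separated genes were deps-1 (0.78) and glh-2 (0.73). None passed (0.0827% of all genes did), and 2 of 6 had an unadjusted p below 0.05 (8.66% of all genes). Other lists lay higher as well, next to 47.8% of all genes above 0: DNA replication genes in 10 of 10 (median 0.47), meiotic chromosome genes in 20 of 22 (0.63) and oogenesis genes in 13 of 14 (0.60), with none past the test. Hypodermis and seam markers summed to 5273 to 6048 FPKM in TIR-1; dpy-27::AID; cec-4 and 1001 to 4174 FPKM in TIR-1; dpy-27::AID, with 4 of 7 above 0 (median 0.87). The part of these lists in the values of the 6 genes was not tested. On auxin the 2 strains did not show this: glh-1, glh-2, glh-4, deps-1 and prg-1 were all below 0 for TIR-1; dpy-27::AID; cec-4 minus TIR-1; dpy-27::AID, at -0.58 to -0.24, with only glh-4 apart (11.6% of all genes in this direction), and none passed (2.28% of all genes). These 4 groups enter all of these comparisons, which are therefore not independent.

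The call that did pass was prg-1 in dpy-21 mutants. It rose to 39.0, 74.9 and 55.3 FPKM in dpy-21 larvae, against 34.8, 23.7 and 14.3 FPKM in WT, a 2.39-fold difference (log2 1.25, SE 0.32, 95% interval 0.59 to 1.92, adjusted p = 0.0306). It was 1 of 6 genes past the test, next to 3.66% of all genes. The groups were apart by the gap between 39.0 FPKM in the lowest dpy-21 library and 34.8 FPKM in the highest WT library. The call was lost without WT replicate 2 (adjusted p = 0.0523), WT replicate 3 (log2 0.92, adjusted p = 0.0703), dpy-21 replicate 2 (1.02, adjusted p = 0.163) or dpy-21 replicate 3 (adjusted p = 0.0860), and in a fit of these 6 libraries alone (adjusted p = 0.323).

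Helicase gene glh-2 was also apart in dpy-21, at 5.85, 15.2 and 6.75 FPKM against 5.33, 3.23 and 2.11 FPKM in WT, but missed the threshold (1.32, SE 0.44, adjusted p = 0.0910). In this direction 11.3% of all genes had groups apart. glh-1 (0.62), glh-4 (0.26) and deps-1 (-0.06) overlapped with WT, as did pgl-3. The median of the 6 genes was 0.94, next to 0.09 over all genes, but 0.44 without WT replicate 3 and 0.62 without dpy-21 replicate 2. Meiotic chromosome genes lay higher in 19 of 22, next to 55% of all genes, with a median of 0.75, and dsb-2 and coh-3 rose by 1.87 and 1.84 on the log2 scale (adjusted p = 0.0218 and 0.0321). DSB-2 promotes meiotic double-strand breaks and COH-3 is a meiotic cohesin. Stem cell and fate regulators were higher in 12 of 16 (median 0.38), of which only iffb-1, a gene of general translation initiation, passed, and it was lower (-0.78, adjusted p = 0.0113). Hypodermis and seam markers summed to 3386 to 5348 FPKM in dpy-21 and 1969 to 3225 FPKM in WT, but the only one past the test, the hedgehog-related gene grd-10, fell to 305, 291 and 248 FPKM in dpy-21, against 984, 916 and 379 FPKM in WT (-1.32, adjusted p = 0.0218). Neuron markers summed to 858 to 976 FPKM in dpy-21 and 1098 to 1551 FPKM in WT, a sum that weighs abundant genes most. Their mean on the centred log2 scale overlapped, at -0.06, -0.20 and -0.02 in dpy-21 and -0.48, -0.18 and 0.45 in WT. Among them egl-21, a gene of neuropeptide processing, was lower (-1.09, adjusted p = 0.00875). The part of these markers in the values of prg-1 was not tested.

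In dpy-21; cec-4 larvae prg-1 was at 50.5, 34.6 and 31.3 FPKM and overlapped with WT (0.74, SE 0.32, adjusted p = 0.196). glh-2 was at 6.68, 6.63 and 6.11 FPKM, above the 5.33, 3.23 and 2.11 FPKM of WT (0.94, SE 0.44, adjusted p = 0.228), a separation that 11.4% of all genes showed. None of the 6 genes passed in dpy-21; cec-4 against WT (4.3% of all genes), against cec-4 (1.56%) or against dpy-21, where no gene of the table passed and 3.9% had an unadjusted p below 0.05. The unadjusted count of the 6 genes was 2 against WT (20.1% of all genes), 0 against cec-4 (14.1%) and 0 against dpy-21. Whether the dpy-21 effect on prg-1 differed with cec-4 mutated was tested directly, and the difference of -1.11 (SE 0.45) did not pass (adjusted p = 0.338; 0.0526% of all genes passed). The double mutant itself differed from dpy-21 by -0.52 in prg-1, with a 95% interval of -1.18 to 0.14.

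The other untreated strains, set against the same 3 WT libraries, gave no call. Untreated dpy-27::AID lay above WT for 6 of 6 genes, next to 52% of all genes, and 0.586% of all genes were called. The median was 0.65, next to 0.03 over all genes. It was 0.25 without WT replicate 3, 0.40 without dpy-27::AID replicate 1 and 1.03 without dpy-27::AID replicate 3. prg-1 was at 56.0, 44.1 and 25.3 FPKM in dpy-27::AID and at 34.8, 23.7 and 14.3 FPKM in WT (0.80, adjusted p = 0.170). Without dpy-27::AID replicate 3 this became 1.12 with an adjusted p of 0.0458. Untreated TIR-1; dpy-27::AID; cec-4 differed from WT by 1.39 in glh-2 (SE 0.44, adjusted p = 0.0862), with libraries at 7.97, 7.28 and 12.03 FPKM against 5.33, 3.23 and 2.11 FPKM in WT (1.73% of all genes were called, and 10.3% lay apart upward). Untreated TIR-1; dpy-27::AID had its largest negative difference from WT in deps-1 (-0.95, adjusted p = 0.245, with 0.293% of all genes called), and cec-4 its largest, leaving pgl-3 aside, in prg-1 (0.59, adjusted p = 0.359, with 0.195% called). At an unadjusted p below 0.05 there were 2 of 6 genes in dpy-27::AID (19.1% of all genes) and 2 in TIR-1; dpy-27::AID; cec-4 (18%). There was 1 in TIR-1; dpy-27::AID (14.2%) and 0 in cec-4 (16.5%). mes-6, a Polycomb gene of the germline list, was higher in untreated dpy-27::AID (1.15, adjusted p = 0.0291).

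Auxin was also compared with no auxin where TIR1 was absent. In cec-4 larvae none of the 6 genes passed (0.00751% of all genes did) or had an unadjusted p below 0.05 (4.3% of all genes). glh-1 was at 85.4, 100.5 and 101.2 FPKM on auxin and at 61.1, 82.3 and 92.6 FPKM without it (0.30, 95% interval -0.58 to 1.18). In dpy-27::AID larvae none passed either (0% of all genes did, and 5.06% had an unadjusted p below 0.05). Here deps-1 alone was apart, at 11.2, 13.04 and 6.58 FPKM on auxin and 25.5, 14.96 and 17.5 FPKM without it (-0.93, SE 0.38, adjusted p = 0.942), as were 4.05% of all genes in this direction. Compared with auxin-treated cec-4, auxin-treated TIR-1; dpy-27::AID; cec-4 differed by -0.60 to -0.06 in the 5 genes other than pgl-3, with overlapping groups and none past the test (4.76% of all genes). In that comparison mut-15, a germ granule gene of small RNA amplification, fell to 14.6, 18.7 and 11.7 FPKM in TIR-1; dpy-27::AID; cec-4, against 25.03, 24.6 and 22.6 FPKM in cec-4 (-0.70, SE 0.20, adjusted p = 0.0365). Against auxin-treated dpy-27::AID, auxin-treated TIR-1; dpy-27::AID differed by -0.40 to 0.46 in the 5 genes other than pgl-3, with overlap and none past the test (1.31% of all genes).

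The genes that were never at 0, a choice made after the values were seen, varied together from library to library. Over the 33 libraries the 10 pairs of glh-1, glh-2, glh-4, deps-1 and prg-1 had a median Pearson r of 0.63 (0.21 to 0.79), and 0.64 (0.31 to 0.74) when each group was centred on its mean, next to a median of 0.002 and a 95th percentile of 0.394 over all pairs of the 13309 genes (0.005 and 0.432 within groups). The closest pairs were glh-1 with glh-2 (0.79) and glh-1 with glh-4 (0.78), and the loosest was glh-2 with deps-1 (0.21). The listed values of pgl-3 did not follow the others, with r from -0.28 (deps-1) to 0.10 (glh-2). The 3 libraries that list pgl-3 at 0 enter these r, and their zeros are not read as absence. With pgl-3 included, the 15 pairs of tested genes had a median r of 0.43 (-0.28 to 0.79). The pairs of all genes were not limited to genes that were never at 0. These are descriptions over libraries that share strains, groups and scaling, so no p is given.

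Other gene lists were set against the mean of the 5 genes in the same way. The means of germline stem cell and fate regulators (r = 0.75, and 0.74 within groups), meiotic chromosome genes (0.75, 0.66 within groups) and germline small RNA genes (0.69, 0.61 within groups) followed it most closely. Oogenesis genes had 0.57 (0.44 within groups), DNA replication genes 0.41 (0.18) and germ granule genes 0.34 (0.13). All 22 meiotic genes and 14 of 16 stem cell and fate genes had an r above 0 over the 33 libraries. Somatic gonad (-0.51, -0.56 within groups) and neuron markers (-0.56, -0.65) ran the other way. The value depended on the centring for body wall muscle (-0.05, 0.44 within groups), hypodermis and seam (0.32, -0.19), intestine (-0.07, -0.33), somatic and general Argonaute genes (0.001, -0.45) and spermatogenesis genes (-0.07, -0.32).

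**Figure D4:**
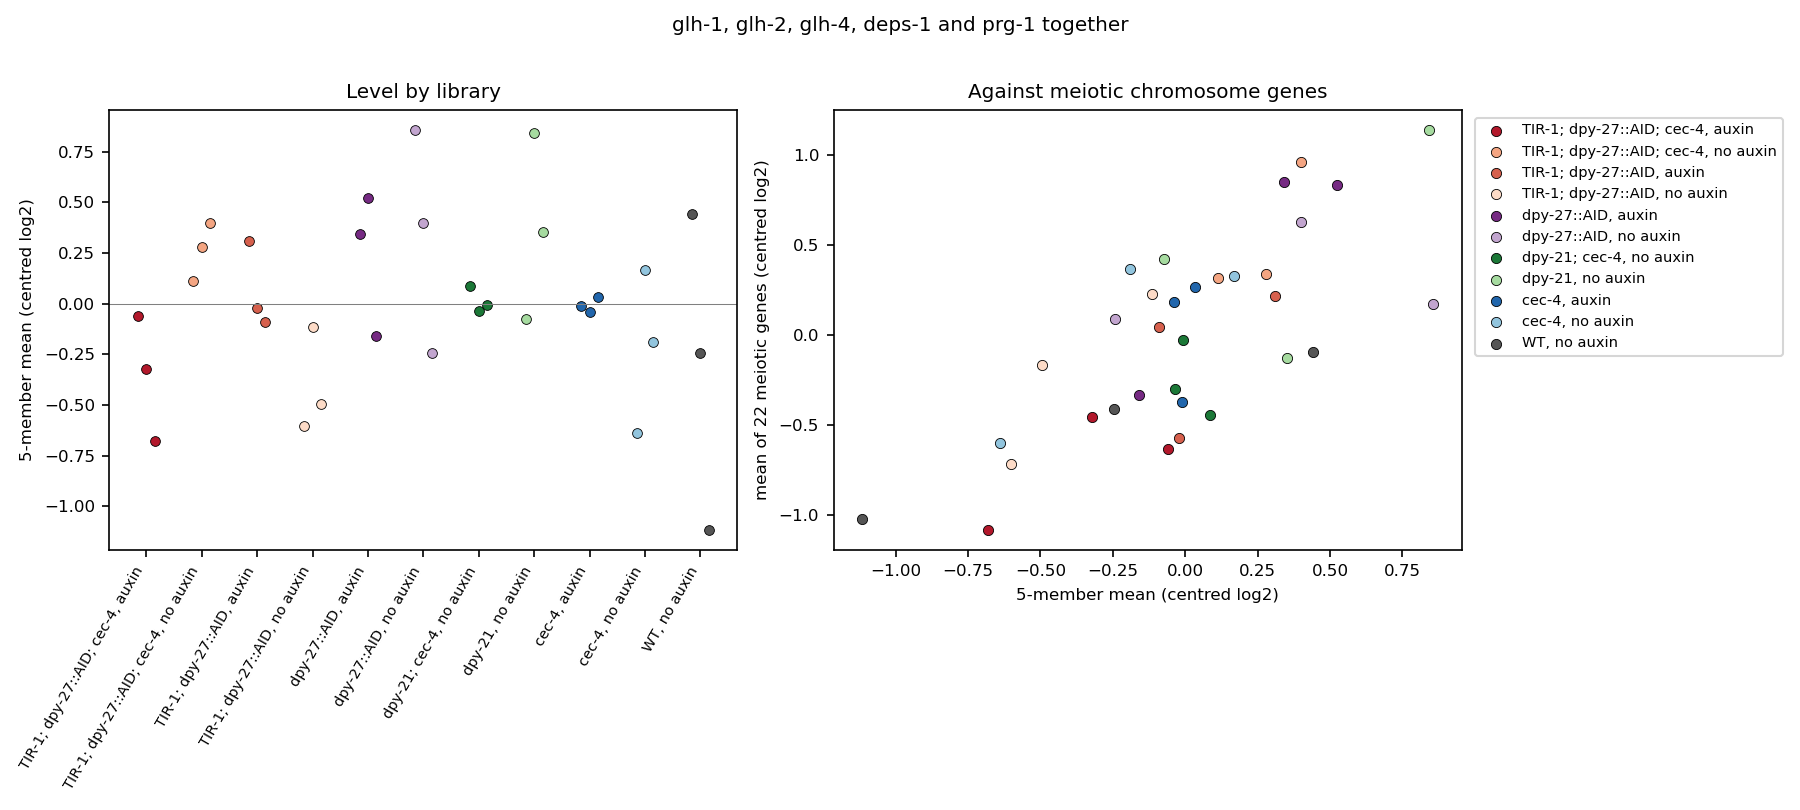
Mean of glh-1, glh-2, glh-4, deps-1 and prg-1 in each library, as log2(FPKM + 0.1) centred on the 33 libraries, by group (left) and against the mean of 22 meiotic chromosome genes (right, r = 0.75). WT spans -1.12 to 0.44, and its lowest library is also at -1.02 for the meiotic genes.

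The genes most like the 8 members were ranked by r with the mean of all 8, over 33 libraries, a mean that takes in the listed zeros of pgl-1, csr-1 and pgl-3. First were F46B6.6 (0.68), glp-1 (0.63), T21B10.4 (0.62), ZK381.2 (0.61) and cox-11 (0.60), followed by col-145, T08D2.4, T04B8.5, srx-58 and F21D5.7 (0.58 to 0.60). glp-1 encodes the Notch receptor that keeps germ cells in mitosis, cox-11 an assembly factor of cytochrome c oxidase and col-145 a cuticle collagen. When groups were centred on their means, 0 of these 10 genes remained among the first 10. With the 5 genes that were never at 0 in place of all 8, a choice made after the values were seen, no gene of that list remained among the first 10. They were then rec-8 (0.88), sdha-2 (0.87), ppw-2 (0.87), daz-1 (0.85), hil-4 (0.85), wago-1 (0.84), mct-5 (0.83), F54D5.9 (0.83), htp-3 (0.83) and hpo-32 (0.83). Of these rec-8 encodes a meiotic cohesin, htp-3 a chromosome axis protein, ppw-2 and wago-1 germline Argonautes and daz-1 an RNA-binding protein of oogenesis.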

How the data were processed

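The authors trimmed reads with cutadapt 2.3, checked them with FastQC 0.11.8, quantified WBcel235 transcripts with Salmon 1.9.0 and tested counts with DESeq2 1.42.0. They deposited FPKM per gene in 1 table, and how FPKM was computed from the Salmon output is not given in the sources used here. As the table holds no counts, a count test was not run. Groups were taken from sample titles, every column was used (0 left out), and gene positions came from the Ensembl 115 annotation, which matched 21975 of 21975 identifiers.

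limma 3.58.1 (R 4.3.3) was fitted to log2(FPKM + 0.1) of 13309 genes with a mean of at least 1 FPKM, with 11 group means, no replicate block and a trend in the prior variance. Benjamini-Hochberg adjustment was made within each of 16 comparisons and 2 interactions, with a threshold of 0.05. Fold changes on this scale understate changes of low genes. Nothing in the labels states separate cultures, so p-values measure the spread between these libraries, which may be technical. The procedure was tested on simulated data. Correlations and plots used Python 3.11.15, numpy 2.4.6, pandas 2.3.3 and matplotlib 3.10.9.

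Depth was estimated from the value of 1 fragment in 3454 single-transcript genes whose exons span 1500 bases or more. Salmon assigns fractions of fragments, so it is approximate.

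The members and all gene lists were chosen with earlier results of these data known. By rule, names were given to the 8 members, the 10 genes most like the members, and dpy-27, dpy-21 and cec-4. Up to 3 genes per list and comparison with the smallest adjusted p below 0.05 could be named, and not all of them are. Others are said to be chosen later. Alternatives were pseudocounts of 1 and 0.01, no filter, a mean of at least 5 FPKM, median-of-ratios scaling, a replicate block, array weights, only the groups compared, and leaving out each library or WT replicates 1 and 2. Equal FPKM sums were added after seeing the data.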

Additional observations from a re-analysis of the deposited data

How the results depend on the processing

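In 269 of 289 recomputed counts of genes past the threshold, the count of the 6 tested genes was as reported. The 20 that moved fell in 7 of 18 comparisons and interactions. The reported count was 0 in all of them except dpy-21 against WT, so most unchanged counts are a 0 that stayed at 0. Leaving out 1 library at a time gave 0 to 1 gene in auxin-treated TIR-1; dpy-27::AID against auxin-treated dpy-27::AID, and 0 to 1 in auxin-treated TIR-1; dpy-27::AID; cec-4 against auxin-treated TIR-1; dpy-27::AID (pgl-3 in both, without replicate 3 of auxin-treated TIR-1; dpy-27::AID). It gave 0 to 1 in dpy-21 against WT (0 without WT replicate 2, WT replicate 3, dpy-21 replicate 2 or dpy-21 replicate 3), and 0 to 1 in dpy-27::AID against WT (1 without dpy-27::AID replicate 3). With array weights, which lower the weight of scattered libraries, 1 gene passed in TIR-1; dpy-27::AID; cec-4 with auxin against without (glh-1, -0.96, adjusted p = 0.0360), 1 in auxin-treated TIR-1; dpy-27::AID against dpy-27::AID (pgl-3), 2 in dpy-21 against WT (prg-1 and glh-2) and 1 in untreated TIR-1; dpy-27::AID; cec-4 against WT (glh-2). When WT replicates 1 and 2, the libraries with high FPKM sums, were left out, the remaining WT library was assumed to vary like the other groups. In that fit 2 genes passed in dpy-21 (prg-1 and glh-1), 1 in dpy-21; cec-4, 1 in dpy-27::AID and 1 in TIR-1; dpy-27::AID; cec-4 (glh-1 in each), all against the WT library that is lowest for glh-1. Equal FPKM sums, chosen after seeing the data, raised the median of all genes in comparisons with WT by 0.31 to 0.37. There 2 genes passed in dpy-21 (prg-1 at 1.57 and glh-2), 1 in dpy-21; cec-4 (prg-1), 2 in dpy-27::AID and 2 in TIR-1; dpy-27::AID; cec-4 (prg-1 and glh-2 in both). A fit of only the groups compared gave 0 in dpy-21 against WT. The share of all genes called in each of these settings is not given beside the counts, so the counts are not read as exceeding it. The cause of these moves was not tested.

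A replicate block changed no count, and prg-1 in dpy-21 against WT stayed at 1.25 (adjusted p = 0.0274). Libraries with the same replicate number did not deviate together (r of -0.10 to 0.17, with no comparison in which every pair was over 0.1), so the numbers were not read as pairs. The adjusted p of prg-1 in dpy-21 against WT was 0.00278 to 0.323 over all settings and was above the threshold in 5 of them. With 3 libraries a group and a WT group as scattered as this, a difference that missed the threshold is not shown to be absent.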
